A study of Mus musculus with 384 samples.

Results

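The chemoattractant receptors described here are 10 genes, Cxcr2, Cxcr4, Fpr1, Fpr2, Ccrl2, C5ar1, Ltb4r1, Ccr1, Ccr2 and Cx3cr1, taken by name from the 23420 genes of a single-cell expression table. All 10 were in the table. The table held 326 cells, each sorted by flow cytometry from the spinal cord of Optn KO mice into its own well after staining for CD45, CD11b and CX3CR1, and made into a full-length SmartSeq2 library. The labels name 384 cells, and those outside the table were not analysed here. All cells carried the Optn KO genotype, a knockout of the gene for optineurin, an autophagy receptor. There was no group without the knockout, so nothing below compares genotypes, and the labels used here give no age and no gate. The cells fell into 2 replicates, Optn KO-1 on plates 1 and 2 and Optn KO-2 on plates 3 and 4. The labels do not say whether these were separate mice. The replicate was a block in each fit, so p-values rest only on how far differences between cells disagree between these 2 samples. That spread was drawn towards the spread of all genes and may be technical. Optn itself was listed at 0 TPM (a level corrected for transcript length and for the total of each cell) in all 326 cells, which cannot be set against cells that carry the gene.

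Chemoattractant receptors are mostly seven-pass membrane receptors coupled to inhibitory G proteins, which steer blood leukocytes towards a source of chemokine, formyl peptide, complement fragment or lipid. In neutrophils, Cxcr2 is known as the receptor for the Cxcl1 and Cxcl2 chemokines that call mature cells out of the bone marrow, and Cxcr4 as the receptor for Cxcl12 that holds them there. Neutrophils make the proteins of their secondary granules while they are immature, so the transcripts of those proteins are a known measure of maturation.

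Neutrophils were taken as the 286 cells with at least 10000 TPM of S100a8 plus S100a9, the abundant calcium-binding proteins of these cells (131 cells in replicate 1 and 155 in replicate 2). The remaining 40 cells (23 and 17) are called other cells. The limit fell in a gap, since the highest sum below it was 4019 TPM and the lowest above it was 12512 TPM. Of a list of 9 measured neutrophil markers, which includes S100a8 and S100a9, at least 3 were at 10 TPM or more in 285 of the 286 neutrophils. No neutrophil had 3 of 9 monocyte markers at that level, and S100a4 and Fcgr1 were at 0 in all of them. Ly6c2, on the same monocyte list, went the other way, at 10 TPM or more in 227 of the 286 neutrophils. Markers of dendritic cells and of B cells reached 3 per cell in 2 neutrophils for each list, all in the class lowest in granule genes, and those of nonclassical monocytes in 4. None reached 3 markers of border macrophages, of T or NK cells, or of eosinophils or basophils. No caller of doublets was run. No cell of either kind had 3 of 14 microglia markers at 10 TPM, although single members reached a summed level of 2810 TPM in a neutrophil and 2099.8 TPM in another cell.

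The granule gene level of a neutrophil was the mean log2(TPM + 1) of Camp, Ngp, Ltf and Lcn2, which encode cathelicidin, neutrophilic granule protein, lactoferrin and lipocalin. Within each plate the neutrophils were divided into 3 classes of equal rank on this level, giving 94 low, 95 middle and 97 high cells with median levels of 3.27, 10.01 and 15.3. No receptor was used in this division. Of these, 27 cells lay within 0.5 of the border between low and middle and 34 within 0.5 of that between middle and high. The classes also differed in other ways that move with every result below. The median number of genes detected was 1374.5 in the low, 1588 in the middle and 2085 in the high class, the median share of all TPM held by granule and S100 genes was 9.75%, 20.1% and 35.1%, and cells with at least 5 of 16 proliferation genes numbered 4, 3 and 21. TPM sums to 1000000 in every cell and keeps no sequencing depth, so the number of genes detected stands in for it.

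The 250 bases before the RefSeq start site are shown for 4 of the 6 receptors that differed between the granule-high and granule-low classes (Cxcr2, C5ar1 and Ccr1 lower, Ltb4r1 higher, each with 1 start site) and for the formyl peptide receptors Fpr1 and Fpr2, neighbours on chromosome 17 that were found in neutrophils and in no other cell. They are from the GRCm38.p6 build, read 5′ to 3′ on the strand of the gene, with capitals marking every match on either strand to 3 motifs: GAGGAA, a core bound by the myeloid factor PU.1, TTNNGNAA, a form bound by C/EBP factors, and TGANTCA, bound by AP-1.
Cxcr2, chr1:74153744-74153993, plus strand: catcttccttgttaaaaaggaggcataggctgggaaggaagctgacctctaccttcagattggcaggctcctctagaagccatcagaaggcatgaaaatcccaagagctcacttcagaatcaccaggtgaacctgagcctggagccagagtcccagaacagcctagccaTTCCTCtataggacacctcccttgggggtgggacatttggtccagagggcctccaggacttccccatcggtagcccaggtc
C5ar1, chr7:16259339-16259588, minus strand: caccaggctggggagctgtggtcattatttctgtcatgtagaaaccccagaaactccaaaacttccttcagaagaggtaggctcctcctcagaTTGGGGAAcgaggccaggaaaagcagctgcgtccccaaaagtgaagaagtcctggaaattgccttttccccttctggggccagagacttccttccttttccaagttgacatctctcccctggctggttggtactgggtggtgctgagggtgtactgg
Ccr1, chr9:123968693-123968942, minus strand: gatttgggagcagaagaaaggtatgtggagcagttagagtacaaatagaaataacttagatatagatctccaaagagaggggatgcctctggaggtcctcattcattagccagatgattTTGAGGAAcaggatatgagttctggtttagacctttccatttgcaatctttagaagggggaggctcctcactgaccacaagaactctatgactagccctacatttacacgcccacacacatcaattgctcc
Ltb4r1, chr14:55765712-55765961, plus strand: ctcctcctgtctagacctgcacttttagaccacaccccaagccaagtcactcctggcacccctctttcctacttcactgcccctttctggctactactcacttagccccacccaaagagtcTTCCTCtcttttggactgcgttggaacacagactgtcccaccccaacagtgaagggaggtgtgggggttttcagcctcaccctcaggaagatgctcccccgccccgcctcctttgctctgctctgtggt
Fpr1, chr17:17883940-17884189, minus strand: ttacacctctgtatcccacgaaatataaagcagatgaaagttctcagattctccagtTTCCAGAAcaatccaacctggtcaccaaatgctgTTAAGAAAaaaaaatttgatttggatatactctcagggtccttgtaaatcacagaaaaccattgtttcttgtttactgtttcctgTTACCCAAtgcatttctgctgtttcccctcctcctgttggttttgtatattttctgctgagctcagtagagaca
Fpr2, chr17:17887574-17887823, plus strand: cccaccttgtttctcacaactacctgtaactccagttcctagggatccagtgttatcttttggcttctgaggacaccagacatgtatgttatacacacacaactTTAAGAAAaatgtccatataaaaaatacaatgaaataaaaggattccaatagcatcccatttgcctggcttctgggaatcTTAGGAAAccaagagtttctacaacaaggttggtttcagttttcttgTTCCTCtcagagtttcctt

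The Cxcr2 window held 1 match to GAGGAA, at 81 to 76 bases before the start site on the opposite strand, and the Ltb4r1 window held 1, at 129 to 124 bases before it. In the Ccr1 window the single GAGGAA match lay inside the single TTNNGNAA match, between 131 and 124 bases before the start site. C5ar1 held 1 match to TTNNGNAA, Fpr1 held 3, and Fpr2 held 2 together with 1 GAGGAA match. None of these 6 windows held TGANTCA. Of the other called receptors, Ccrl2, with 3 annotated start sites, held none of the motifs in its 3 windows, and Cxcr4 held 1 match to TTNNGNAA. Over all 32851 promoter windows of this length, 23.3% held GAGGAA, 36.8% TTNNGNAA and 6.75% TGANTCA, so the 2 former are common letters. A match describes the sequence and is not a bound site.

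Cxcr2 had the highest level of the 10 receptors in the granule-low neutrophils and fell with the granule gene level. Its mean was 2109 TPM in replicate 1 and 2105 TPM in replicate 2 of the low class, 1498 and 1468 TPM in the middle class, and 345.1 and 343.8 TPM in the high class. The replicates differed by far less than the classes, and no class overlapped another. High against low, the difference in log2(mean TPM + 1) was -2.61 (SE 0.14, limma adjusted p = 4.17e-05). It was -2.10 for high against middle (adjusted p = 0.000412), and the -0.51 for middle against low did not pass (adjusted p = 0.109). Cxcr2 was at 10 TPM or more in 96.8% of low cells (exact 95% interval 91.0 to 99.3), 94.7% of middle cells (88.1 to 98.3) and 70.1% of high cells (60.0 to 79.0), intervals that, here as below, cover counting error only. The receptor was thus still found in most granule-high cells, at a median of 371.1 TPM where present against 1945 TPM in low cells.

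Ccr1, a receptor for inflammatory CC chemokines such as Ccl3, went the same way. Its mean was 1009.9 and 965.4 TPM in the low class, 423.4 and 711.7 TPM in the middle class, and 126.9 and 127.2 TPM in the high class. The replicates lay far apart only in the middle class, and the classes did not overlap. The log2 difference of high against low was -2.95 (SE 0.26, limma adjusted p = 0.000387), and of high against middle -2.10 (adjusted p = 0.00445). The share of cells at 10 TPM or more was 76.6% in the low, 69.5% in the middle and 38.1% in the high class.

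C5ar1, the receptor for the complement fragment C5a, was the receptor found in the largest share of neutrophils, 268 of 286 at 10 TPM or more. Its share hardly differed between the classes, at 95.7%, 91.6% and 93.8%, while its level did. Mean TPM was 1746 and 1694 in the low, 1086 and 978.1 in the middle, and 621.0 and 746.5 in the high class, with no overlap. High against low gave a log2 difference of -1.34 (SE 0.16, limma adjusted p = 0.00135). The steps on either side of the middle class, -0.74 and -0.60, did not pass on their own (adjusted p = 0.0559 and 0.0729).

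Ccrl2, which binds the chemerin protein without known signalling of its own, was found in few cells at high levels. It was at 10 TPM or more in 29.8% of low, 22.1% of middle and 21.6% of high cells, and where present its median was 2688 TPM in low, 796.7 TPM in middle and 365.2 TPM in high cells. Mean TPM was 739.3 and 1065.2 in the low class, 297.1 and 401.5 in the middle class, and 92.4 and 241.3 in the high class. Its replicates lay further apart than those of Cxcr2, but the classes did not overlap. The log2 difference of high against low was -2.56 (SE 0.29, limma adjusted p = 0.0011).

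Ltb4r1, which encodes the high-affinity receptor for the lipid leukotriene B4, was the one member that rose with the granule gene level. Mean TPM was 218.0 and 199.4 in the low class, 469.3 and 384.1 in the middle class, and 996.9 and 1142 in the high class, again without overlap. The log2 difference was 2.35 for high against low (SE 0.21, limma adjusted p = 0.000425) and 1.33 for high against middle (adjusted p = 0.0120). The 1.02 for middle against low did not pass (adjusted p = 0.0524). All 97 granule-high cells had at least 10 TPM (lower bound of the exact 95% interval 96.3%), against 54.7% of middle and 22.3% of low cells. The change was mainly one of how many cells held the transcript: among those that did, the median was 819.5 TPM in low, 694.6 TPM in middle and 967.3 TPM in high cells.

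Fpr1, a receptor for bacterial and mitochondrial formyl peptides, was highest in the middle class. Mean TPM was 912.1 and 712.9 in the low, 1355 and 1394 in the middle, and 499.5 and 550.9 in the high class. The middle class lay above both others in each replicate. High against middle gave a log2 difference of -1.39 (SE 0.18, limma adjusted p = 0.00504). Neither middle against low (0.77, adjusted p = 0.0711) nor high against low (-0.62, adjusted p = 0.0501) passed. On fixed steps of the granule gene level, Fpr1 was at 10 TPM or more in 44.4% of the 27 neutrophils with a level under 2, and in 59.1%, 79.2%, 88.0% and 90.6% over the steps up to 5, 8, 11 and 14. It was in 54.5% of the 110 neutrophils at 14 or above. Its mean over the same steps was 503.5, 850.3, 1224, 1601, 1393 and 573.5 TPM. The share rose over the first 5 steps and dropped at the last. Among cells between the quartiles of the number of genes detected, it was 80.0% in the low, 88.7% in the middle and 62.5% in the high class.

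Fpr2, a receptor for formyl peptides, lipoxin A4 and annexin A1, did not pass in any of the 3 class comparisons. Mean TPM was 303.3 and 285.2 in the low, 387.6 and 330.6 in the middle, and 299.5 and 350.8 in the high class, with overlap between every pair of classes except low and middle. The log2 difference of high against low was 0.14 (SE 0.24, limma adjusted p = 0.732), and it was positive on 2 plates and negative on the other 2. Its share of cells at 10 TPM or more was 30.9% in the low, 50.5% in the middle and 54.6% in the high class. In single neutrophils, 98 held both formyl peptide receptors at that level, 89 Fpr1 alone, 32 Fpr2 alone and 67 neither. Fpr2 overlaps the Fpr3 gene in the annotation, and SmartSeq2 libraries do not mark strand, but Fpr3 was at 10 TPM or more in 0 of 286 neutrophils.

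Cxcr4 was close to absent. Of 286 neutrophils, 228 had 0 TPM, 38 a value above 0 and under 10 TPM, and 20 had 10 TPM or more. Those 20 were 12 low cells, 7 middle cells and 1 high cell, and the highest held 847.0 TPM. Mean TPM was 22.5 and 11.6 in the low class, 6.54 and 13.2 in the middle class, and 1.07 and 0.16 in the high class, so that low and middle overlapped and high lay below both. Few cells carried the low and middle means. The median over all cells of either class was 0 TPM, and the highest value was 847.0 TPM in low and 316.6 TPM in middle cells. The class difference thus rests on those few cells. The log2 difference of high against low was -3.47 with a large error (SE 0.86, limma adjusted p = 0.0292), and it passed in 12 of 16 other ways of processing. With values under 10 TPM set to 0, too few neutrophils held Cxcr4 for it to be tested. Of the 20 cells, 19 also held C5ar1, 18 Ccr1, 18 Cxcr2 and 16 Fpr1. In all neutrophils these were at 10 TPM or more in 93.7%, 61.2%, 87.1% and 65.4% of cells, and Ccr1 in 76.6% of low cells.

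Ccr2 and Cx3cr1, the receptors by which monocytes follow Ccl2 and fractalkine, were not found in neutrophils beyond traces. Ccr2 was above 0 in 16 of 286 and at 10 TPM or more in 1, at 14.1 TPM. Cx3cr1 was above 0 in 20 and never reached 10 TPM, its highest value being 8.66 TPM. Both were below the level needed for the test along the granule classes (a mean of 5 TPM).

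**Figure D1:**
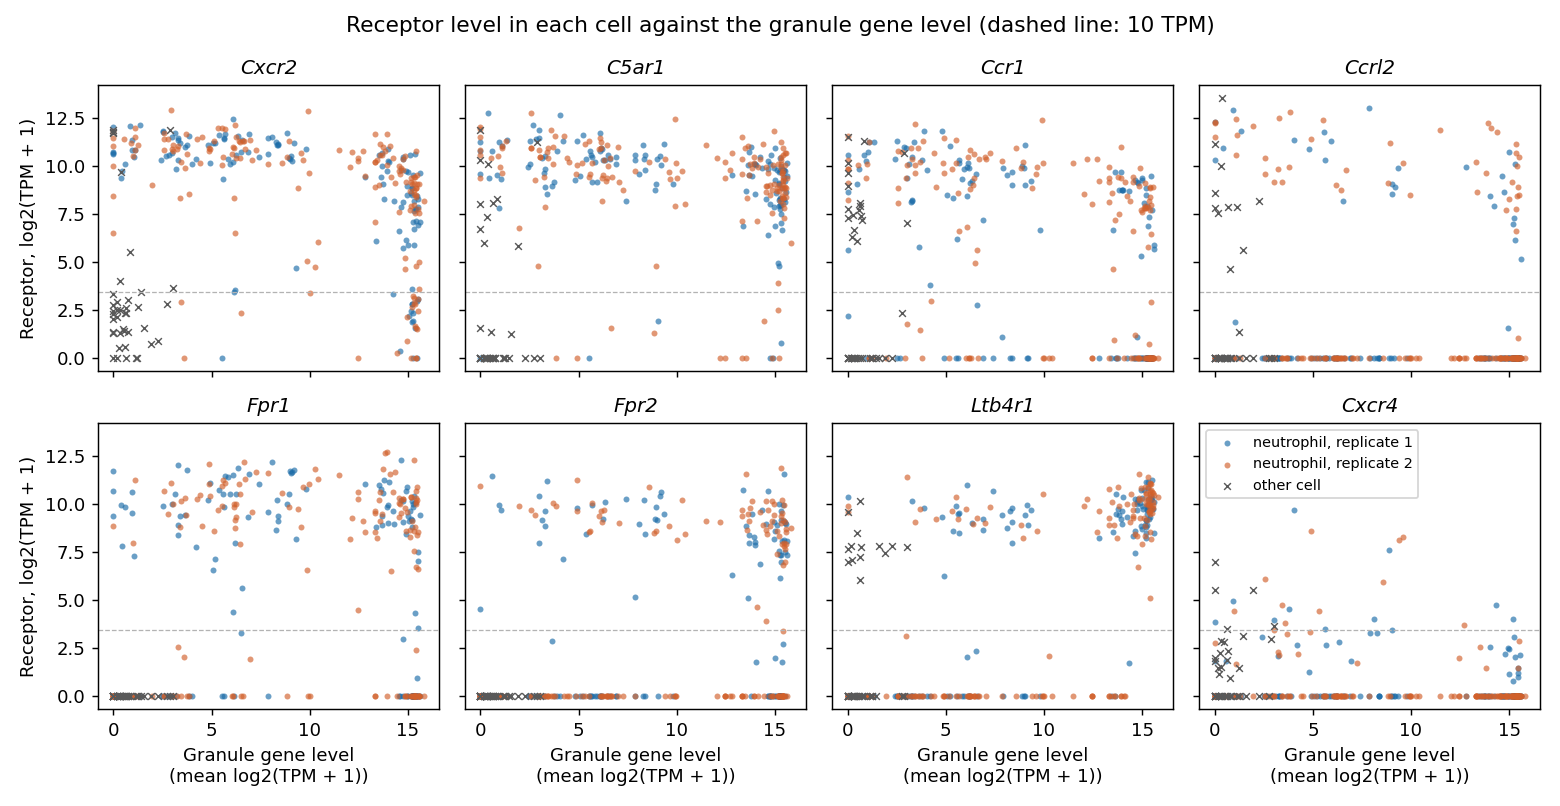
Each point is 1 cell, with its granule gene level (mean log2(TPM + 1) of 4 genes) on the x axis and the log2(TPM + 1) of 1 receptor on the y axis. Neutrophils are coloured by replicate, crosses are the 40 other cells, and the dashed line is 10 TPM. Ltb4r1 lies above the line in all 97 granule-high neutrophils, while Cxcr2 spreads down to 0 at the right end and Fpr1 and Fpr2 are at 0 in every other cell.

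**Figure D2:**
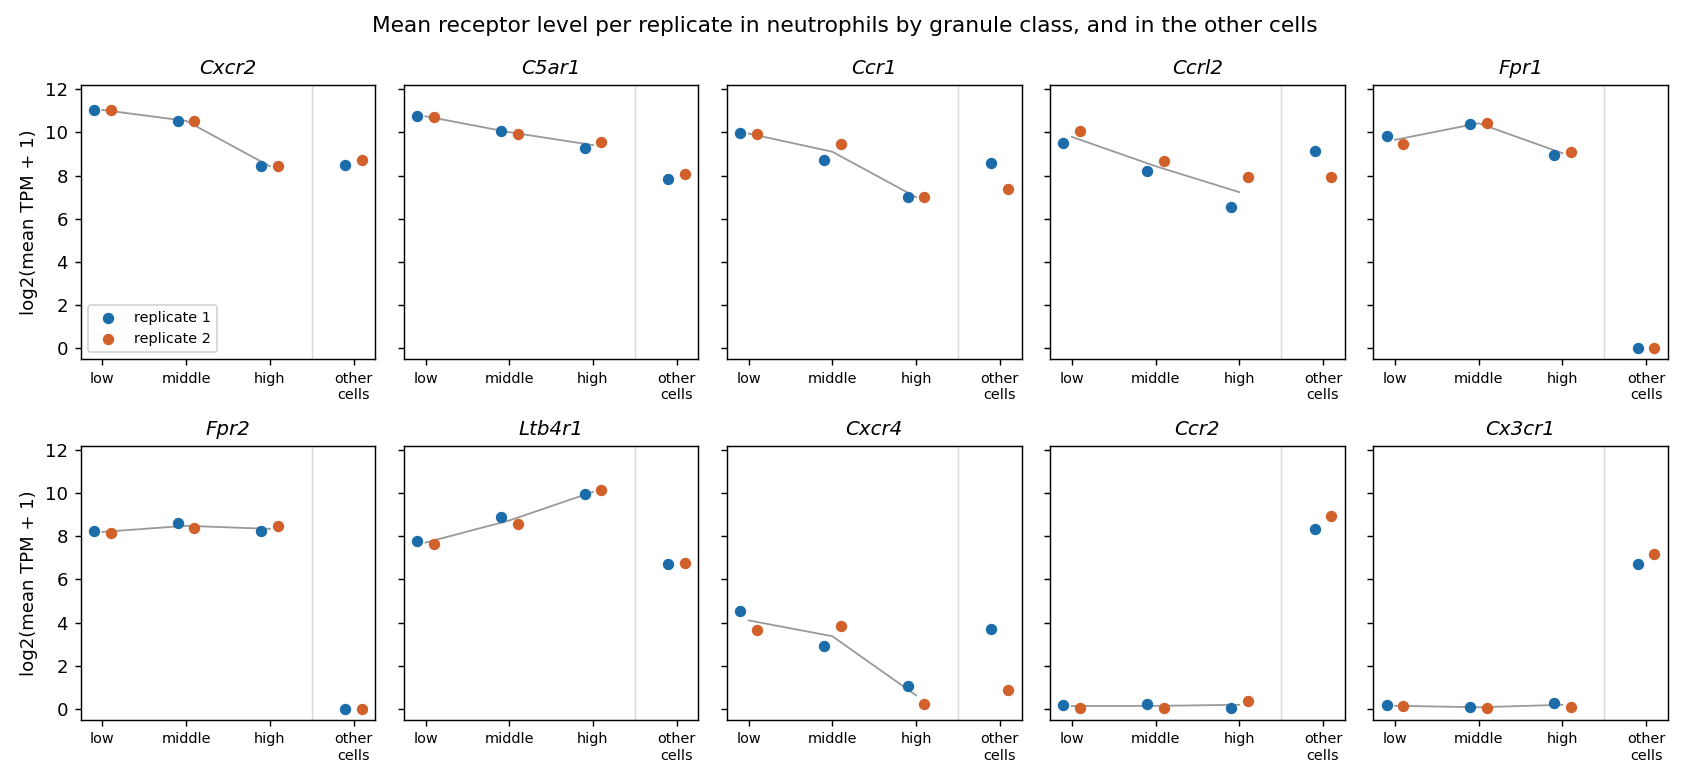
Points are the log2(mean TPM + 1) of each of 2 replicates in the low, middle and high granule classes and in the other cells, and lines join the mean of both replicates over the classes. Cxcr2, C5ar1, Ccr1 and Ccrl2 step down, Ltb4r1 steps up, Fpr1 peaks in the middle class, and Ccr2 and Cx3cr1 lie near 0 in every class of neutrophils.

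Of the 8 receptors tested between high and low cells, 6 were called, 5 lower and 1 higher. Over the 4048 genes tested, 14.2% were called lower and 5.63% higher, and the median log2 difference of all genes was -0.31. Between high and middle cells 4 of the 8 were called (Cxcr2, Ccr1 and Fpr1 lower, Ltb4r1 higher), beside 5.88% of all genes lower and 1.09% higher. Between middle and low cells limma called none of the 8, beside 1.58% of all genes lower and 1.73% higher, and 6 of the 8 had an unadjusted p under 0.05, as had 834 of all 4048 genes. The direction of high against low was the same on all 4 plates for the 6 called receptors and for Fpr1. With TPM recomputed without the granule, S100 and ribosomal Rn45s genes, the median of all genes moved from -0.31 to 0.18 and the share of called genes that were higher from 28.4% to 52.0%. The same 6 receptors were called then, and relative to the median of all genes Cxcr2 stood at -2.30 before and -2.35 after, C5ar1 at -1.03 and -1.04, and Ltb4r1 at 2.66 and 2.67. Restricted to cells between the quartiles of the number of genes detected, the differences were -2.21 for Cxcr2, -2.91 for Ccr1, -2.37 for Ccrl2, -1.07 for C5ar1 and 2.03 for Ltb4r1, all called, while Cxcr4 was not (-3.02, adjusted p = 0.208). Fpr1 was called in these cells (-0.88, limma adjusted p = 0.0460). With the granule level first adjusted for the number of genes detected, Cxcr2 moved to -1.42, Ccr1 to -1.65 and C5ar1 to -0.83, all still called, while Cxcr4 was not (-1.69, adjusted p = 0.314) and Fpr1 changed sign (0.13, adjusted p = 0.740).

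The order of the receptors by level was not the same at both ends. In low cells Cxcr2 lay above C5ar1, both lay above Ccr1, Ccrl2 and Fpr1, of which Ccrl2 overlapped each of the other two, and these above Fpr2, Ltb4r1 and Cxcr4, in that order. In high cells Ltb4r1 was first, followed by C5ar1 and Fpr1. Cxcr2 and Fpr2 came next with overlapping replicates, then Ccr1 and Ccrl2, which also overlapped. Each neutrophil held a median of 4 of the 10 receptors at 10 TPM or more in the low class, 5 in the middle and 4 in the high class, with 1 to 7 in every class.

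Within the high class, the 21 cells with proliferation genes differed in level from the 76 without. Cxcr2 was at 10 TPM or more in 33.3% of the former and 80.3% of the latter, but the former share was 54.5% of 11 cells in replicate 1 and 1 of 10 cells in replicate 2. Its mean was 55.0 and 41.2 TPM against 438.9 and 415.8 TPM in the 2 replicates. Fpr1 was at that level in 1 of the 21 and in 49 of the 76. Ltb4r1 was in all cells of both, and C5ar1 in 90.5% and 94.7%. These are descriptions of cells with no test between them. Without all cycling cells the class difference remained -2.13 for Cxcr2 and 2.59 for Ltb4r1, both called, and became -0.04 for Fpr1 (limma adjusted p = 0.904).

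Against the other cells, 8 of the 10 receptors were called, 6 higher in neutrophils (Cxcr2, C5ar1, Ccr1, Ltb4r1, Fpr1 and Fpr2) and 2 lower (Ccr2 and Cx3cr1). Fpr1 and Fpr2 met the filter for this test only through neutrophils, and Ccr2 and Cx3cr1 only through the other cells. The direction of these calls thus follows from the filter, and their p-values are no separate support. Of the 7105 genes tested in this comparison, 5.19% were called higher and 20.7% lower, with a median log2 difference of -0.77. Recomputing TPM as above moved that median to -0.40 and the share of called genes that were higher from 20.1% to 33.5%, and the same number of receptors was called. The 40 other cells had more genes detected (median 3027.5), and 13 of them had proliferation genes.

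Fpr1 and Fpr2 were listed at 0 TPM in all 40 other cells, which allows a share of up to 7.5% of cells with a listed value for each, and says less of how many cells express the gene. In neutrophils they averaged 915.7 and 886.9 TPM for Fpr1 and 329.7 and 322.4 TPM for Fpr2, and both were called (limma adjusted p = 3.61e-07 and 4.53e-06). Ltb4r1 averaged 568.0 and 577.5 TPM in neutrophils and 105.5 and 107.7 TPM in other cells, a log2 difference of 2.41 (SE 0.34, adjusted p = 0.000169). It was at 10 TPM or more in 14 other cells.

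Ccr2 and Cx3cr1 showed the reverse. Ccr2 averaged 0.11 and 0.13 TPM in neutrophils and 321.4 and 487.8 TPM in other cells, a log2 difference of -8.47 (SE 0.76, limma adjusted p = 3.21e-06). It was at 10 TPM or more in 27 of the 40 other cells. Cx3cr1 averaged 0.14 and 0.07 TPM against 104.6 and 145.4 TPM, a log2 difference of -6.81 (SE 0.89, adjusted p = 9.37e-05), and was at that level in 17 other cells. With neutrophils at trace levels, the size of both differences is set largely by the pseudocount, and with 0.1 or 10 in place of 1 they were -10.8 or -5.33 for Ccr2 and -9.26 or -3.72 for Cx3cr1, all called. CX3CR1 was also one of the proteins stained for the sort, and the annotated span of the gene holds 9 other genes, so reads of those cannot be told apart by strand. Among the 25 other cells with at least 1000 TPM of Ly6c2, an antigen of classical monocytes, 24 held Ccr2, 14 Cx3cr1, 13 Ltb4r1 and 12 Ccr1. Ly6c2 does not set these cells apart from neutrophils, where its median was 2499 TPM in the high and 2229 TPM in the middle class. The 2 cells with at least 100 TPM of both Treml4 and Ace, genes of nonclassical monocytes, were both from replicate 1 and held Cx3cr1 at 327.9 and 1051 TPM and no Ccr2 at 10 TPM. The 2 cells with at least 1000 TPM of the B cell gene Cd79a held none of the 10 receptors at 10 TPM.

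The differences of Cxcr2, C5ar1, Ccr1 and Ccrl2 between neutrophils and other cells moved with how neutrophils were told from other cells. Cxcr2 averaged 1303 and 1301 TPM in neutrophils and 361.0 and 427.4 TPM in other cells, a log2 difference of 1.73 (SE 0.24, limma adjusted p = 0.000141). C5ar1 averaged 1143 and 1136 TPM against 230.7 and 270.1 TPM, a difference of 2.19 (SE 0.26, adjusted p = 4.3e-05). Ccr1 gave 1.15 (SE 0.36, adjusted p = 0.0340), with 0.45 in replicate 1 alone and 1.85 in replicate 2 alone. Without cycling cells it was 0.80 and not called (adjusted p = 0.292), and it passed in 9 of 13 other ways of processing. Ccrl2 gave 0.31 (adjusted p = 0.621) and Cxcr4 1.05 (adjusted p = 0.509). However, 6 of the other cells, 4 in replicate 1 and 2 in replicate 2, had at least 1000 TPM of Csf3r, the receptor for the neutrophil growth factor G-CSF. All 6 held Cxcr2, from 44.6 to 3834 TPM with a median of 3479 TPM, and C5ar1, from 106.1 to 3791 TPM, and 5 held Ccr1. None held Fpr1, Fpr2, Ltb4r1, Ccr2 or Cx3cr1, and 1 Ccrl2 value of 12058 TPM among them was the highest of any cell. The summed level of the 9 neutrophil markers in them was 12555 to 20785 TPM. It was 0 to 3105 TPM in the remaining 34 other cells. That sum includes Csf3r, by which the 6 were picked, at means of 5877 and 4988 TPM in the 2 replicates. Part of the gap was thus set by the choice. All neutrophils, defined by 2 of these markers, had a median sum of 184206 TPM. Of 9 monocyte markers, 6 were at 0 in all 6 cells. Without these 6 cells, Cxcr2 was at 10 TPM or more in 2 of 34 other cells, neither above 15.0 TPM. The log2 differences became 8.09 for Cxcr2, 5.92 for C5ar1, 2.97 for Ccr1 and 2.87 for Ccrl2, all called. Cells that held these receptors were thus taken from 1 side only, by a limit set after seeing the data. The larger differences follow from that choice and are no separate support. Raising the neutrophil limit to 50000 TPM of S100a8 plus S100a9 instead moved further cells into the other group, and Fpr1, absent from the 6 cells, was then at 3.14. The same 4 differences were then 0.38, 0.25, -0.14 and -1.05, of which Ccrl2 alone was called.

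Small values need care for Cxcr2 in particular. It was above 0 in 35 of the 40 other cells, but 27 of those values were under 10 TPM. Counting values above 0 would have put Cxcr2 in more other cells than Ccr2, which was above 0 in 28. With this limit, set after seeing the data, setting all values under 10 TPM to 0 left each of the 8 calls against other cells in place. For high against low, the same setting left Cxcr4 untested and Fpr1 called (limma adjusted p = 0.0436).

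**Figure D3:**
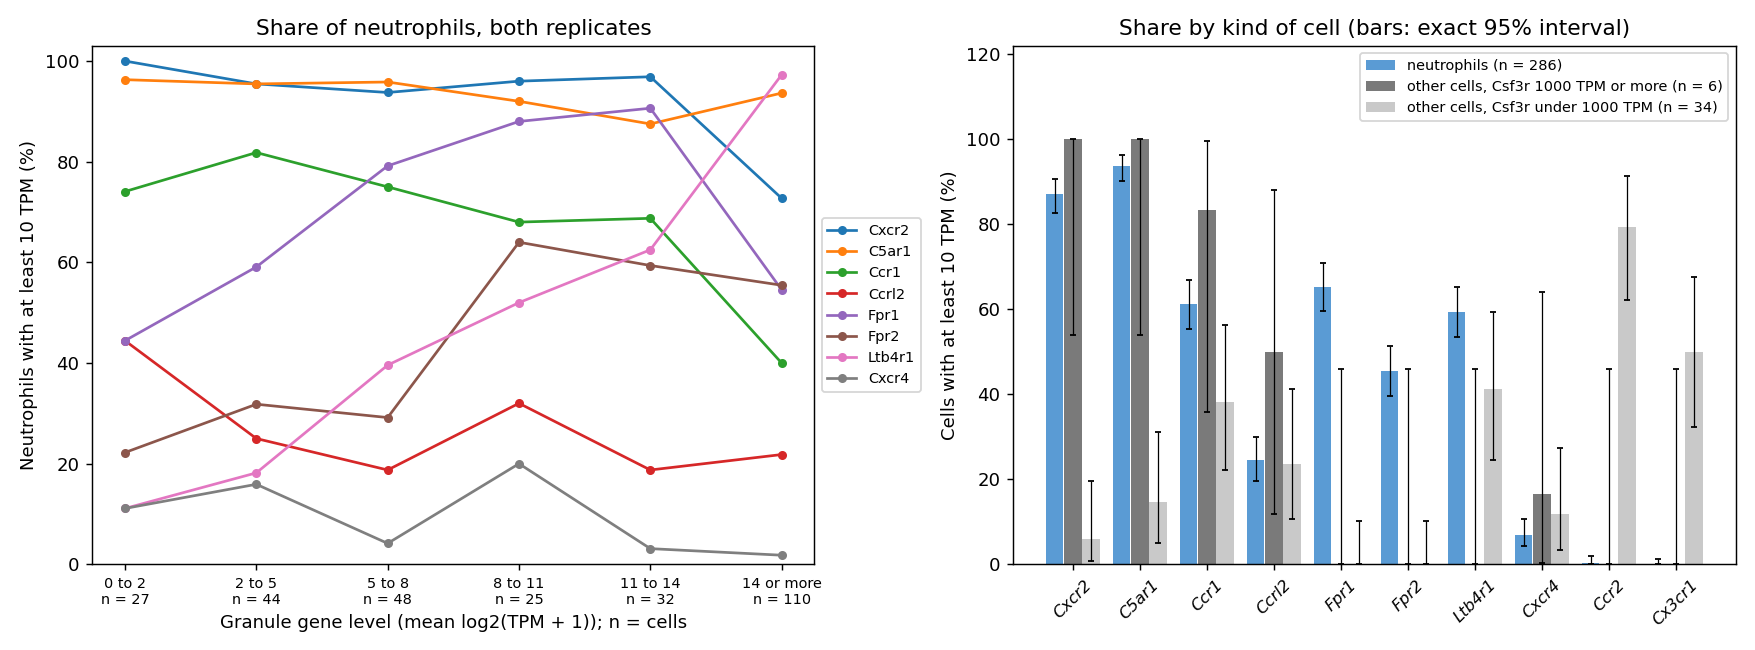
Left, the share of neutrophils with at least 10 TPM of each receptor over 6 steps of the granule gene level, with the number of cells under each step. Right, the same share in all 286 neutrophils, in the 6 other cells with at least 1000 TPM of Csf3r and in the 34 without, with exact 95% intervals. Ltb4r1 climbs over the steps while Fpr1 climbs and then drops, and the 6 cells hold Cxcr2 and C5ar1 without Fpr1, Fpr2 or Ltb4r1.

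The genes whose levels ran most alike to each receptor over neutrophils were found by Spearman rho within each plate, averaged over the 4 plates, among 2779 genes. The cells of a plate share preparation and differ in depth, so these are descriptions. Cxcr2 ran closest to H2-D1 (a class I histocompatibility gene, rho 0.64), Csf3r (0.64) and Ccl6 (a CC chemokine, 0.64). Ltb4r1 ran closest to Ngp (0.64) and Camp (0.62), both part of the granule gene level, and to Chi3l3 (a chitinase-like protein, 0.61). Fpr1 ran closest to the granule protease genes Mmp8 (0.58) and Mmp9 (0.49), and to Retnlg (0.46). Ccrl2 ran closest to the NF-kB response genes Nfkbia (0.45) and Tnfaip3 (0.39) and to Gadd45b (0.38). C5ar1 and Ccr1 shared Srgn, the granule proteoglycan serglycin, at 0.47 and 0.51. Their other 2 were Junb (0.47) and Selplg (0.45) for C5ar1, and Dusp1 (0.51) and Ftl1 (0.50) for Ccr1. No gene reached 0.3 for Fpr2, and Cxcr4 likewise had none. Among the receptors, rho was 0.46 between Cxcr2 and Ccr1, 0.38 between Cxcr2 and C5ar1, and -0.41 between Cxcr2 and Ltb4r1.

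Genes around the receptors were counted by list. Of 28 genes that carry signals from these receptors, 27 were tested between high and low cells, 0 were higher and 5 lower by limma, with a median log2 difference of -0.43. Over all genes tested, 14.2% were lower, with a median of -0.31. The 5 included the Src family kinases Fgr (-1.73, adjusted p = 0.00133) and Lyn (-1.71, adjusted p = 0.00414) and the Rac exchange factor Prex1 (-2.32, adjusted p = 0.0137). Of 32 other chemoattractant receptors, 7 were expressed enough to test and 6 were called, 2 higher and 4 lower, beside 5.63% and 14.2% of all genes. Niacr1, the niacin and hydroxybutyrate receptor, fell from 3035 and 3473 TPM in low cells to 96.2 and 134.8 TPM in high cells. Ptafr, the receptor for platelet-activating factor, fell by 2.65, and C5ar2, the second C5a receptor, fell by 2.64. Ffar2, a receptor for short-chain fatty acids, and Gpr84, one for medium-chain fatty acids, were higher, at 86.2 and 119.8 TPM and at 65.7 and 107.0 TPM in high cells. Ffar2 was at 1.65 and 0 TPM and Gpr84 at 0 TPM in low cells. Both thus met the mean of 5 TPM needed for the test only through cells outside the low class. Their 2 calls as higher partly follow from that filter and are no separate support.

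Of 24 ligands and leukotriene enzymes, 6 were tested, of which 2 were higher and 3 lower, beside 5.63% and 14.2% of all genes. Lta4h, the hydrolase that makes leukotriene B4, the ligand of Ltb4r1, was at 953.0 and 1105 TPM in high cells and 83.8 and 23.5 TPM in low cells (log2 difference 4.50, limma adjusted p = 0.00168). Alox5ap, which presents arachidonate to the first enzyme of that route, was lower by a difference of -0.84 (adjusted p = 0.00103). Anxa1, a ligand of Fpr2, was higher, at 11694 and 13590 TPM against 2597 and 2730 TPM. Cxcl2, a ligand of Cxcr2, was lower, at 105.9 and 157.1 TPM against 2677 and 1825 TPM, and Ccl6 was lower by -7.16 (adjusted p = 4.17e-05). Of 16 proliferation genes, 4 were tested and 3 were higher in high cells (Ube2c, Birc5 and Mki67), beside 5.63% of all genes. The high class held 21 of the 28 neutrophils with at least 5 of these genes. The filter of 5 TPM was thus met more readily through that class, and the count is no separate support.

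Against the other cells the same lists gave 4 signalling genes higher and 0 lower of 27 tested, 3 other receptors higher and 1 lower of 7, 4 ligands and enzymes higher and 4 lower of 11, and 0 proliferation genes higher and 9 lower of 16. Of all genes tested there, 5.19% were higher and 20.7% lower. Rac2, the GTPase of leukocyte migration, was higher in neutrophils by 1.12 and Alox5, the first enzyme of leukotriene synthesis, by 2.87 (limma adjusted p = 0.0012 and 0.000156). Gpr35 was lower by a log2 difference of -3.33 (adjusted p = 0.00595). Ccl9, a ligand of Ccr1, averaged 3.01 and 0.36 TPM in neutrophils and 290.0 and 520.3 TPM in other cells.

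**Figure D4:**
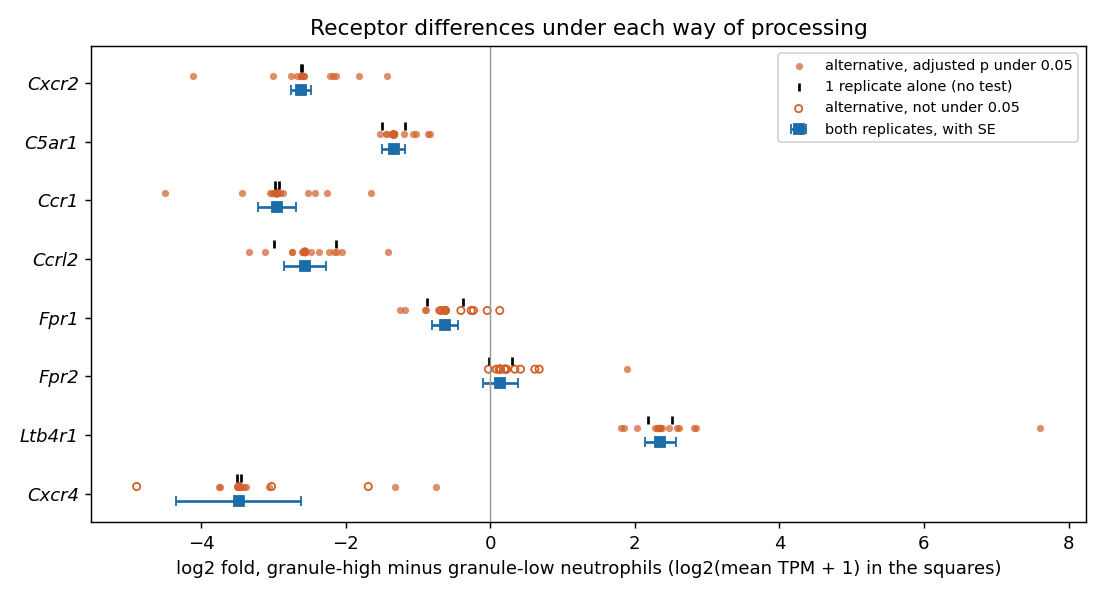
Squares are the log2 difference of granule-high minus granule-low neutrophils with its standard error, dots are the same difference under each other way of processing, filled where the adjusted p was under 0.05, and ticks are 1 replicate alone. Cxcr2 and Ltb4r1 stay on their side of 0 with all dots filled, Fpr1 has dots on both sides, and Fpr2 has open dots from -0.024 to 0.68 and a single filled dot at 1.89.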

How the data were processed

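Single cells from the spinal cord of Optn KO mice were measured by SmartSeq2. The deposited TPM table was made by the authors with RSEM on mm10, per the submitters' processing notes. Neither aligner, annotation nor versions were stated there. No cell was removed. TPM sums to 1000000 per cell, so depth is unknown, and the number of genes detected ran from 675 to 5707 (median 1681).

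The 10 receptors, the lists and the classes were chosen with earlier results of these data known. TPM was averaged over the cells of each class in each of 2 replicates (the 2 labels of the description), and log2(mean TPM + 1) was fitted with limma 3.58.1 in R 4.3.3 (trend and robust, replicate as a block). Adjusted p-values are Benjamini-Hochberg over all genes tested, called at 0.05. The class fit had 2 residual degrees of freedom and the fit against other cells 1, so both lean on the spread of all genes. Tested on simulated data, the fits recovered most large changes but called more unchanged genes than the threshold implies. Genes tested between classes had a mean of at least 5 TPM over the class averages and were above 0 in at least 10% of neutrophils. Against other cells, the mean of at least 5 TPM weighed both kinds equally, and 10% of the cells of either kind sufficed. The 6 genes that defined the classes were left out. The limits of 10 TPM for a trace and for single marker genes such as Csf3r were set after seeing the data. Shares carry exact Clopper-Pearson 95% intervals, and a count of 0 allows 3 cells. Named were all 10 receptors, the 3 called genes of smallest p per list and direction, and the 3 most alike genes with rho of at least 0.3, compared where both genes were above 0 in at least 20% of neutrophils. Listed symbols were matched to older ones in the table, and Ly6g, Sirpb1c and Ighm had no match. Gene positions were from GENCODE and promoters from RefSeq. Other scalings, pseudocounts, filters, neutrophil limits, class borders and sets of cells were tried.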

Additional observations from a re-analysis of the deposited data

How the results depend on the processing

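Of the granule-high against granule-low differences, Cxcr2 and Ltb4r1 were called under all 17 other settings that gave a test (-4.12 to -1.42 and 1.81 to 7.61), C5ar1, Ccr1 and Ccrl2 under 16, Cxcr4 under 12 of 16, Fpr1 under 9 and Fpr2 under 1. Without the filter on low values, 89 genes and 2 receptors were called in place of 803 and 6. Against other cells 0 genes and 0 receptors were called in place of 1837 and 8. There 2309 of 14131 genes, in place of 7105 tested, had an unadjusted limma p under 0.05. For high against low, Cxcr2 kept its difference of -2.61 with a smaller SE (0.099 against 0.139), but its limma adjusted p was 0.0264. Why fewer genes were called was not tested. Averaging log2(TPM + 1) over cells gave 1951 genes called, 80.7% of them higher against 28.4%, and 3208 against other cells. Adjusting the granule level for genes detected gave 454 genes, keeping cells between the quartiles of genes detected 287, and leaving out cycling cells 701 against other cells; the last 2 rest on fewer cells. Signs turned for Fpr2 (-0.024) and, against other cells, Ccrl2 (-1.05) and Ccr1 (-0.14) at the 50000 TPM limit, for Fpr1 (0.13) with the adjusted granule level, for Cxcr4 against other cells (-0.54) with averaged logs, and for Ccrl2 against other cells (-0.16) without cycling cells; the cause was not tested.

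The replicate numbers pair the classes by label, but replicate differences of the classes hardly ran together over genes (r of 0.01 to 0.04). Without the replicate block, 845 genes and 7 receptors were called for high against low, with Fpr1 added (limma adjusted p = 0.0374), and 1432 genes and 7 receptors against other cells, with Ccr1 lost (adjusted p = 0.105). With 1 replicate alone no test is possible, and the called receptors kept their sign in both comparisons; of those not called, Ccrl2 and Cxcr4 against other cells (-0.58 and -0.27) and Fpr2 for high against low (-0.018) turned without replicate 2. Depth is unknown, so a value of 0 TPM may be an expressed transcript that was not captured.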

Other observations

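Receptor pairs in single neutrophils also differed by class. Cxcr2 and Ltb4r1 were both at 10 TPM or more in 20 of 94 low, 51 of 95 middle and 68 of 97 high cells, while Cxcr2 without Ltb4r1 was found in 71, 39 and 0 cells and Ltb4r1 without Cxcr2 in 1, 1 and 29. C5ar1 without Cxcr2 was found in 2, 4 and 26 cells. Fpr1 without Fpr2 was found in 33 low, 35 middle and 21 high cells, and Fpr2 without Fpr1 in 5, 3 and 24. Cxcr1, a related receptor for Cxcl chemokines, was at 10 TPM or more in 9 of 286 neutrophils and in 0 of 40 other cells, with a highest value of 2296 TPM. These counts are descriptions of cells with no test.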
